A study of Mus musculus with 6 samples.

Results

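Histone acetyltransferases, deacetylases, histone methyltransferases and demethylases, DNA methylation enzymes and BET bromodomain readers were described in bone marrow-derived macrophages of the genotypes Ctrl and KAT7KO. The 47 genes were chosen by name as chromatin writers, erasers and readers outside the KAT7 complexes, and all 47 were found among the 18039 genes of the deposited table. Of these, 46 had enough counts to be tested, and the exception was Hdac11, with 0 to 16 counts in a library. Macrophages were grown from mouse marrow for 7 days with M-CSF, the cytokine that drives macrophage differentiation, at 20 ng/mL. RNA was sequenced as paired ends from 3 Ctrl and 3 KAT7KO libraries, with totals of 19906726 to 20660090 counts over genes. The labels do not give the strain, age or number of the animals, the part of Kat7 that was deleted or the cells in which it was deleted. The 3 libraries of a genotype are called biological replicates, but nothing says that they came from separate animals, so a p-value here covers only the spread among these libraries, which may be technical.

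Writers place chemical marks on histone tails or on DNA, erasers remove them, and readers bind them. KAT7 is itself a writer, an acetyltransferase of the MYST family, to which KAT5, KAT6A, KAT6B and KAT8 also belong. In macrophages such enzymes are known for setting which inflammatory and metabolic genes can be switched on: acetyltransferases such as p300 mark active enhancers, and the demethylase KDM6B (JMJD3) is induced by inflammatory stimuli and removes a repressive mark of the polycomb complex PRC2. The comparison therefore asks whether RNA for the rest of this machinery differed when Kat7 RNA was reduced. Kat7 itself (ENSMUSG00000038909) went from 70.9 ± 2.13 to 40.6 ± 2.12 CPM (counts scaled to library size by TMM, ± SD, n = 3), 57.3% of Ctrl (edgeR adjusted p = 9.63e-07), and the groups did not overlap.

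Most of the members differed little. Of the 46 tested, 5 rose (Kat2b, Kat5, Kat8, Hdac8 and Hdac9), 4 fell (Dnmt3a, Kdm6b, Dot1l and Tet3), and 37 did not pass an adjusted p of 0.05 in edgeR's quasi-likelihood test. Those 9 are 19.6% of the tested members, against 23.9% of all 12483 genes tested. The 5 that rose are 10.9%, against 10.7% of all genes, and the 4 that fell are 8.70%, against 13.2%. These shares lie near the background and are not a result about the list. Their median log2 fold change was -0.04, against 0.0023 for all genes, and their median absolute log2 fold change was 0.10, against 0.17. The libraries of the genotypes did not overlap for 14 members (30.4%), 7 higher and 7 lower, where the shares over all genes were 41.0%, 19.9% and 21.2%. Among the 37 members that did not pass, the 95% interval lay inside a change of 1.5-fold either way for 37 and inside 1.2-fold for 18.

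**Figure D1:**
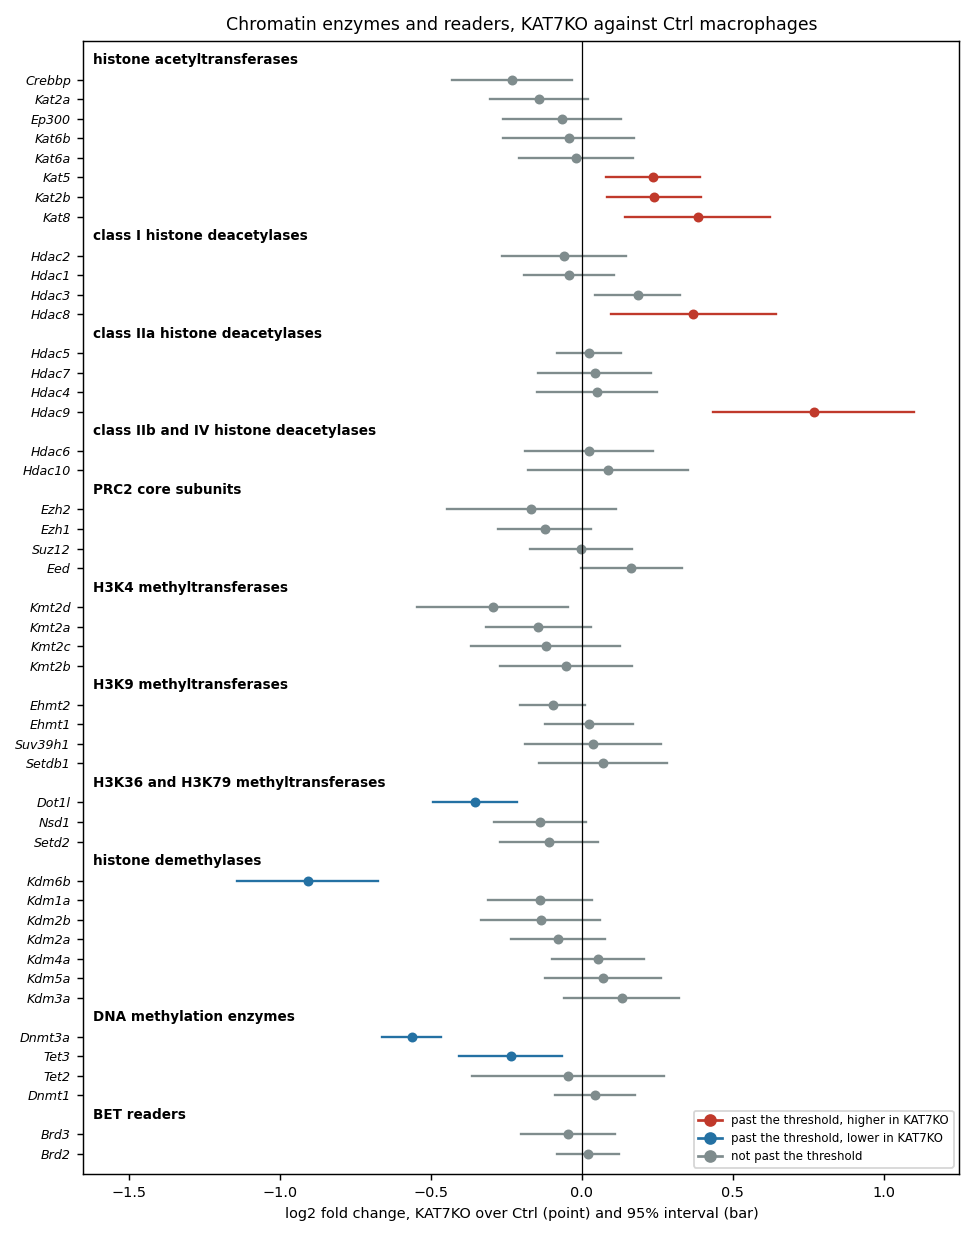
Log2 fold change of KAT7KO over Ctrl for the 46 tested members, by class, with the 95% interval of the edgeR fit from 3 libraries a genotype. Kdm6b (-0.91), Dnmt3a (-0.56) and Dot1l (-0.35) lie farthest to the left and Hdac9 (0.77) farthest to the right, while the intervals of most other members reach across or near 0.

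Promoter sequence was at hand for 38 of the 47 members in RefSeq (GRCm38.p6), with 59 start sites, and is shown for 3 of the 4 members that kept their call in every setting but a test for a change over 1.2-fold: Dnmt3a and Dot1l, which fell, and Hdac9, which rose. The table has no entry for Kdm6b. Each line gives the 250 bases before a start site, 5′ to 3′, with CG dinucleotides in capitals. Dnmt3a has 3 start sites in the table, of which the most upstream is printed, and which start the macrophages used was not measured.

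Dnmt3a, chr12:3806730-3806979, plus strand: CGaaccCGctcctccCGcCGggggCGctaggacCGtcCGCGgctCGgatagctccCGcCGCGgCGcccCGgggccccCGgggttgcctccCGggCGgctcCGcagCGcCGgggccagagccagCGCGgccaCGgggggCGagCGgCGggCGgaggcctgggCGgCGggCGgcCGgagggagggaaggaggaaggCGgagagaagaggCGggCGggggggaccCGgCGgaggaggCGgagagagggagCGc
Dot1l, chr10:80754953-80755202, plus strand: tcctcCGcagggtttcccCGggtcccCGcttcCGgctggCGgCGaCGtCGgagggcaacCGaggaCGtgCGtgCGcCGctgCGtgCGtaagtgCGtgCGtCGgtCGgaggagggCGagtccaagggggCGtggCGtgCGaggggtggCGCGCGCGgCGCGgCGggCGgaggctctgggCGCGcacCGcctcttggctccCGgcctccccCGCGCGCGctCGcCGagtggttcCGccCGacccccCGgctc
Hdac9 upstream start, chr12:34917096-34917345, minus strand: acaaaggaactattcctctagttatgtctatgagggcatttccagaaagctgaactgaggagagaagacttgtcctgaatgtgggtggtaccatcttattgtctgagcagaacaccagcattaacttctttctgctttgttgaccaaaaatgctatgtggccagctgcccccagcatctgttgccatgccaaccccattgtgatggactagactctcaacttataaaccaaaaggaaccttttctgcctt
Hdac9 downstream start, chr12:34528890-34529139, minus strand: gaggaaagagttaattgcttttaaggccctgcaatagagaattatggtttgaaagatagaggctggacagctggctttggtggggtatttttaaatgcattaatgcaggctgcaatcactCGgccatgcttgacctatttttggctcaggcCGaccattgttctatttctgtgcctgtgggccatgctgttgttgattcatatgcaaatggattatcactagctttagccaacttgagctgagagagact

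These windows hold 38 CG dinucleotides for Dnmt3a, 44 for Dot1l, and 0 and 2 for the start sites of Hdac9, where the median was 21 over the 59 member promoters and 6 over all 32851 in the table. The other start sites of Dnmt3a, which are not printed, have 40 and 15 CG dinucleotides, so the most downstream of them lies below the member median. Among the other members that passed, Kat2b has 6 and 5, Kat5 15 and 24, Kat8 10 and 5, and Hdac8 6, all of which rose. Tet3, which fell, has 17, below the member median, while the second Kat5 start site lies above it. This is a description, with no test. The motif GGGCGG, the GC box, was counted on both strands and occurs in 38 of the 59 member promoters (64.4%) and in 32.7% of all promoters, including 5 times in the Dnmt3a window and 2 times in that of Dot1l. It was not found in either Hdac9 window. TATAAA, the TATA box, occurs in 3.39% of member promoters and 12.4% of all, and the upstream Hdac9 window holds 1. The most downstream Dnmt3a start has 1 GC box and 1 E-box. The CCAAT motif occurs in 35.6% and 33.8%, and the E-box CACGTG in 6.78% and 6.02%, and neither was found in these 4 windows.

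Dnmt3a, which encodes a methyltransferase that sets new methyl groups on DNA, was the member with the most RNA and the smallest p. Ctrl libraries held 497, 509 and 489 CPM of it, and KAT7KO libraries 335, 341 and 336 CPM. Every KAT7KO value lay far below every Ctrl value, and the spread within a genotype was under 10 CPM (SD, n = 3). KAT7KO libraries thus had 67.7% of the Ctrl level (95% interval 63.2% to 72.4%), a log2 fold change of -0.56 with SE 0.05 and an edgeR adjusted p of 1.35e-06. Scaled for gene length, its level was 30.1 FPKM in Ctrl, the highest of the 47 members, and 20.1 FPKM in KAT7KO, the fourth highest after Brd2, Ehmt2 and Dnmt1. Dnmt3aos, a noncoding RNA gene annotated on the opposite strand of Dnmt3a, was also lower. It had 15.8, 18.9 and 17.4 CPM in Ctrl and 6.22, 5.47 and 5.46 CPM in KAT7KO, and fell to a mean of 5.72 from 17.3 CPM (SE of the log2 fold change 0.11, adjusted p = 3.75e-07 with edgeR). Dnmt3aos was looked up because it shares 133 exon bases with Dnmt3a in the GENCODE M21 annotation, 0.799% of the Dnmt3a exons, and the strand setting of the counting is not given in the sources used here. Reads from the shared bases cannot be told apart, and their part in either result was not tested.

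The other DNA methylation genes showed smaller differences or none that passed. Dnmt1, the maintenance methyltransferase that copies methylation after replication, stood at 173, 149 and 147 CPM in Ctrl and 159, 159 and 165 CPM in KAT7KO, with overlapping groups. Its log2 fold change was 0.04 with a 95% interval of -0.09 to 0.17. Without Ctrl replicate 1, which held the highest value, Dnmt1 passed as higher (0.12, adjusted p = 0.0211). The FPKM ratio of Dnmt1 to Dnmt3a was therefore 0.706 in Ctrl and 1.08 in KAT7KO, and the 3 KAT7KO ratios lay above all Ctrl ratios. Tet3 encodes a dioxygenase that oxidises methylated cytosine. Its levels were 58.5, 50.1 and 46.7 CPM in Ctrl and 44.9, 42.6 and 44.4 CPM in KAT7KO. The gap between the groups was narrow, and Ctrl replicate 1 held the highest value. Tet3 fell by 0.24 (SE 0.08, adjusted p = 0.0440), but leaving out Ctrl replicate 1 gave -0.14 with an adjusted p of 0.0898, and no other single library except Ctrl replicate 3 could be left out with the call kept. Tet2, its relative, did not pass (-0.05, 95% interval -0.36 to 0.27).

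Kdm6b had the largest log2 fold change of the members, and encodes a demethylase that removes methyl groups from lysine 27 of histone H3. Its levels were 13.6, 13.9 and 12.3 CPM in Ctrl and 6.77, 7.51 and 6.92 CPM in KAT7KO. The highest KAT7KO value was below the lowest Ctrl value by a wide margin. KAT7KO libraries had 53.3% of the Ctrl level (95% interval 45.4% to 62.6%), a log2 fold change of -0.91 with SE 0.11 and an adjusted p of 4.99e-05. The other 6 demethylases did not pass. Kdm1a, which acts on mono- and dimethylated lysine 4 of histone H3, had a log2 fold change of -0.14, and the lysine 36 demethylases Kdm2a and Kdm2b had -0.08 and -0.14. Kdm3a, Kdm4a and Kdm5a, which belong to other JmjC families, had 0.13, 0.05 and 0.07. Kdm2b differed only slightly, but its 3 KAT7KO values (12.6 to 14.05 CPM) lay below its 3 Ctrl values (14.44 to 14.6 CPM).

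The enzymes that set the mark which KDM6B removes showed no call. Among the core subunits of PRC2, Ezh1 and Ezh2, the alternative catalytic subunits, had log2 fold changes of -0.12 and -0.17, Suz12 had -0.0032 and Eed 0.16. Eed, the subunit that binds the mark, was higher in every KAT7KO library (22.1 to 23.9 CPM) than in any Ctrl library (20.5 to 21.1 CPM), with an adjusted p of 0.146. Ezh1 was the more abundant of the catalytic pair, at 5.41 times the FPKM of Ezh2 in Ctrl and 5.60 times in KAT7KO. Ezh2 levels were 7.35, 7.13 and 7.93 CPM in Ctrl and 7.52, 5.92 and 6.52 CPM in KAT7KO, and its 95% interval ran from 73.3% to 108% of Ctrl.

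Dot1l was the histone methyltransferase gene that fell among the members. It encodes the enzyme that methylates lysine 79 of histone H3 within the bodies of transcribed genes. Its levels were 136, 126 and 114 CPM in Ctrl and 102, 94.98 and 97.1 CPM in KAT7KO. The groups did not overlap, although the Ctrl values were themselves spread, with an SD of 11.3 CPM. Dot1l fell by 0.35 (SE 0.06, adjusted p = 0.00135), to 78.2% of Ctrl (95% interval 71.1% to 86.1%). Its call did not survive the stricter question of a change over 1.2-fold (adjusted p = 0.221 with edgeR's glmTreat).

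The remaining 14 histone methyltransferase and PRC2 genes did not pass. The H3K4 methyltransferase genes Kmt2a, Kmt2b, Kmt2c and Kmt2d, of the MLL family, had log2 fold changes of -0.14, -0.05, -0.12 and -0.30. Kmt2d, which marks enhancers, had 91.8, 72.7 and 63.0 CPM in Ctrl and 60.6, 62.2 and 62.6 CPM in KAT7KO. Ctrl replicate 1 stood far above the rest, and the lowest Ctrl value was only just above the highest KAT7KO value. The adjusted p of Kmt2d was 0.0833. It passed with DESeq2 (0.0333), with the replicate block (0.0474), with a gene length trend removed (0.0266) and without Ctrl replicate 3 (0.00102), and the authors' deposited table gives it an adjusted p of 0.0408. It did not pass in the other 11 settings, and without Ctrl replicate 1 the log2 fold change was -0.14 (adjusted p = 0.0603). Without Ctrl replicate 3, Kmt2a (-0.22, adjusted p = 0.0333) and Nsd1 (-0.20, adjusted p = 0.0387) also passed. Nsd1 and Setd2, which methylate lysine 36 of histone H3, had log2 fold changes of -0.14 and -0.11. The H3K9 methyltransferase genes, whose mark is found in silent chromatin, had log2 fold changes of 0.07 for Setdb1, 0.04 for Suv39h1, 0.02 for Ehmt1 and -0.10 for Ehmt2. Setdb1 passed as higher without Ctrl replicate 1 (0.20, adjusted p = 0.0134). Ehmt2, the gene of G9a, had the highest FPKM of the histone methyltransferase genes among the members, 28.6 in Ctrl and 26.4 in KAT7KO. The further lists were not ranked by FPKM.

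Among the acetyltransferases, 3 of 8 rose, each by a small amount, and 0 fell, where 10.7% and 13.2% of all genes did. The median log2 fold change of the 8 was -0.03, with 5 below 0. With 8 genes, the count is not a result about the class. Kat8 encodes MOF, the MYST enzyme known for acetylating lysine 16 of histone H4. Its levels were 12.2, 14.8 and 17.4 CPM in Ctrl and 18.9, 19.5 and 19.5 CPM in KAT7KO. The Ctrl libraries were widely spread, while the KAT7KO libraries lay close together above all of them. Kat8 rose by 0.38 (SE 0.11, adjusted p = 0.0232), to 130% of Ctrl. Kat5 encodes TIP60, the MYST catalytic subunit of the NuA4 complex. It had 32.6, 33.7 and 36.1 CPM in Ctrl and 38.0, 42.3 and 40.4 CPM in KAT7KO, and rose by 0.24 (SE 0.07, adjusted p = 0.0301). Kat2b encodes PCAF, a catalytic subunit of the SAGA and ATAC coactivator complexes. It had 26.3, 25.5 and 25.2 CPM in Ctrl and 30.3, 29.1 and 31.4 CPM in KAT7KO, and rose by 0.24 (SE 0.07, adjusted p = 0.0298). For these 3 genes the groups did not overlap. None of the 3 passed without Ctrl replicate 2, KAT7KO replicate 2 or KAT7KO replicate 3, and the adjusted p-values reached 0.0847 for Kat8, 0.149 for Kat5 and 0.117 for Kat2b with 1 library left out. The authors' deposited table calls Kat5 and Kat8 but not Kat2b (adjusted p 0.0555). In GENCODE M21, 12.1% of the Kat5 exon bases also belong to Rnaseh2c on the opposite strand, which had a log2 fold change of 0.05 (adjusted p = 0.801).

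The other 5 acetyltransferases did not pass. Kat2a, the paralog of Kat2b, had a log2 fold change of -0.14, and passed as lower without Ctrl replicate 1 (-0.19, adjusted p = 0.0445). The FPKM ratio of Kat2a to Kat2b went from 2.07 in Ctrl to 1.59 in KAT7KO without overlap of the libraries. The MYST genes Kat6a and Kat6b, closest to each other in the family, had -0.02 and -0.04. Ep300 and Crebbp, which encode the enhancer acetyltransferases p300 and CBP, had -0.06 and -0.23. Crebbp had 49.6, 45.1 and 36.6 CPM in Ctrl and 36.8, 37.4 and 37.6 CPM in KAT7KO. Its Ctrl replicate 3 fell within the KAT7KO range, and without that library Crebbp was lower (-0.34, adjusted p = 0.00240). Leaving out Ctrl replicate 1, where Crebbp was highest, gave -0.13 with an adjusted p of 0.167.

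Of 10 tested deacetylase genes 2 rose and 0 fell, where 10.7% and 13.2% of all genes did. Hdac9, a class IIa deacetylase gene known for its role in inflammation of macrophages and vessels, had the lowest length-scaled level of the tested members, 0.275 FPKM in Ctrl. Its levels were 4.45, 4.30 and 3.43 CPM in Ctrl and 6.17, 7.81 and 6.77 CPM in KAT7KO, from 70 to 157 counts a library. All KAT7KO values were above all Ctrl values. Hdac9 rose by 0.77 (SE 0.16, adjusted p = 0.00272), which is 1.70-fold with a 95% interval of 135% to 214% of Ctrl. Hdac8, a class I deacetylase known for acting on cohesin, had 5.56, 5.62 and 6.17 CPM in Ctrl and 6.87, 7.61 and 7.93 CPM in KAT7KO. The groups were apart but close, and Hdac8 rose by 0.37 (SE 0.13) with an adjusted p of 0.0499, just under the threshold. That call was lost in 12 of 15 alternative settings. The sign of Hdac8 stayed the same in all 15.

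The other 8 tested deacetylases did not pass. Hdac3, the catalytic subunit of the NCoR and SMRT corepressor complexes, had 43.9, 44.7 and 49.1 CPM in Ctrl and 53.8, 52.8 and 49.9 CPM in KAT7KO. Each KAT7KO value was above each Ctrl value, and the adjusted p was just over the threshold (0.0571; log2 fold change 0.18, 95% interval 0.04 to 0.33). Hdac3 passed with the gene length trend removed (0.0227) and without Ctrl replicate 3 (0.0184). Hdac1 and Hdac2, the paired subunits of the Sin3, NuRD and CoREST complexes, had log2 fold changes of -0.04 and -0.06. In class IIa, Hdac4 had 0.05, Hdac5 0.02 and Hdac7 0.04, with Hdac5 at 93.7 to 95.2 CPM in Ctrl and 95.1 to 97.2 CPM in KAT7KO. The FPKM ratio of Hdac7 to Hdac9 went from 12.9 to 7.82 with no overlap of the libraries. The tubulin deacetylase gene Hdac6 and the polyamine deacetylase gene Hdac10 had 0.02 and 0.09. Hdac11, the class IV gene, was at 0 to 0.782 CPM in Ctrl and 0.201 to 0.497 CPM in KAT7KO, where 3 counts in a library correspond to 0.145 to 0.152 CPM.

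The BET readers, which bind acetylated histones and recruit the transcription machinery, did not pass. Brd2 had 224, 222 and 210 CPM in Ctrl and 223, 222 and 220 CPM in KAT7KO, with a log2 fold change of 0.02 and a 95% interval of 94.6% to 109% of Ctrl. Brd3 had 27.1 to 28.4 CPM in Ctrl and 26.3 to 27.4 CPM in KAT7KO, and a log2 fold change of -0.05.

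**Figure D2:**
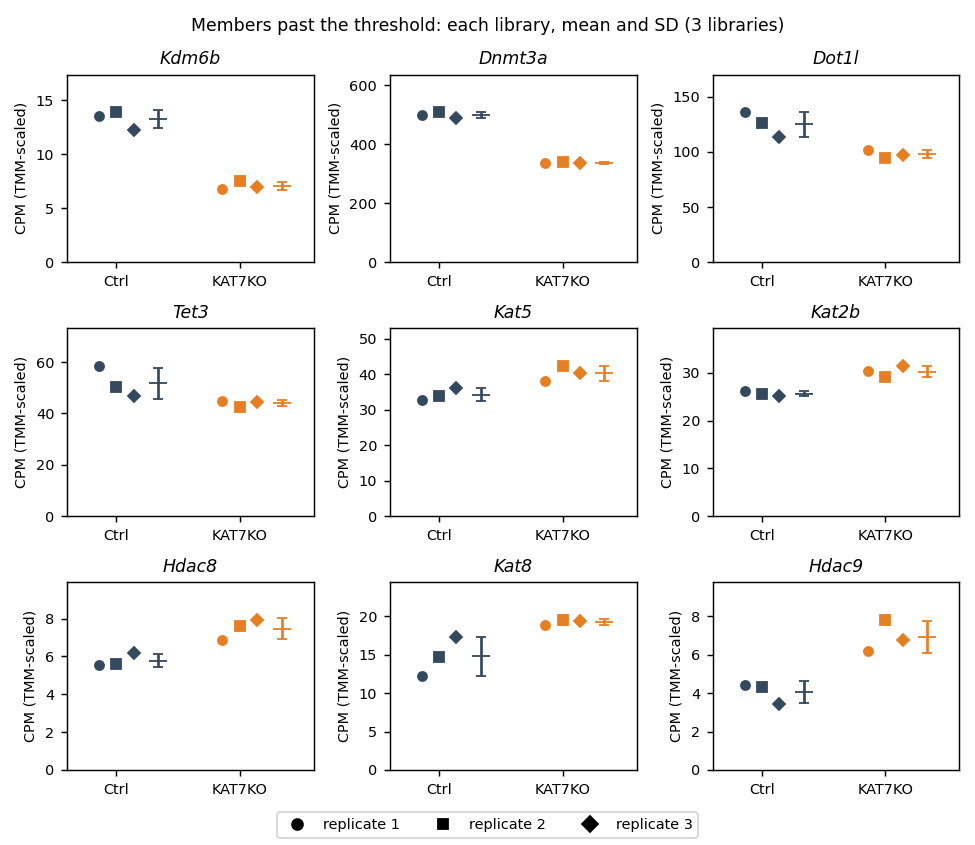
CPM after TMM scaling in each of the 6 libraries for the 9 members past the threshold, with the mean and SD of 3 libraries beside the points; each vertical axis starts at 0. The genotypes do not overlap in any panel, with a wide gap for Dnmt3a and Kdm6b and a narrow one for Tet3, Kat5 and Kat8.

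Related genes were also compared within each library, since a ratio of FPKM values does not depend on library scaling. For 6 of 15 pairs the ratios of the genotypes did not overlap, where 41.0% of single genes did not overlap and the share for gene pairs at large was not computed. Beside Dnmt1 to Dnmt3a, Hdac7 to Hdac9 and Kat2a to Kat2b, these were Kmt2c to Kmt2d (0.424 in Ctrl and 0.479 in KAT7KO), Ep300 to Crebbp (2.07 and 2.32) and Brd2 to Brd3 (7.37 and 7.72). The exact two-sided permutation test of 3 against 3 libraries gave p = 0.1 for each of these, the smallest it can give, and 0.25 after Benjamini-Hochberg adjustment over the 15 pairs. The test could therefore not have called any ratio, whatever its values, and it says nothing on whether the ratios differed. Differences were -0.73 for Hdac7 to Hdac9, 0.61 for Dnmt1 to Dnmt3a and -0.38 for Kat2a to Kat2b on the log2 scale, where the SD within a genotype was at most 0.20 for these pairs.

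**Figure D3:**
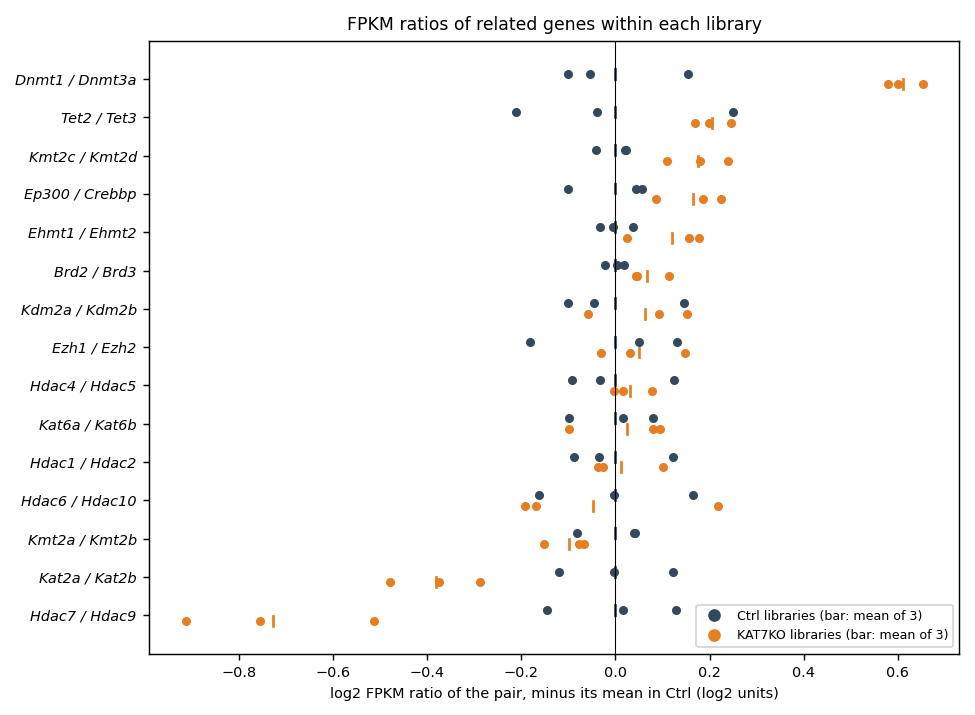
Log2 FPKM ratio of 15 pairs of related genes in each library, minus the Ctrl mean of the pair, so that Ctrl libraries centre on 0; bars are means of 3 libraries. The KAT7KO points of Dnmt1 to Dnmt3a lie far to the right (difference 0.61) and those of Hdac7 to Hdac9 far to the left (-0.73), while pairs such as Kat6a to Kat6b (0.03) and Hdac1 to Hdac2 (0.01) mix.

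Gene length moved with the differences. The members are long genes, with a median length of 7633 bases as implied by the ratio of count to FPKM, against 4444 bases for all tested genes. With all tested genes sorted into 5 equal bins by length, 23 of the 46 were in the longest bin. Over all genes, the median log2 fold change was 0.10 in the shortest bin and -0.06 in the longest. Of the 23 members in the longest bin 1 rose and 3 fell, where 5.89% and 15.7% of all genes in that bin did. Of the 11 in the next 0 rose and 1 fell, against 8.45% and 15.8% of its genes. Of 7 in the middle bin 2 rose and 0 fell (9.37% and 15.0%). Of 5 in the second shortest 2 rose and 0 fell (13.2% and 11.6%). With so few members a bin, these counts are not a result about the members. Ctrl replicate 1 held the highest of the 6 values for 22 members (47.8%), against 25.5% of all genes. It did so for 15 of the 23 members in the longest bin. The share over all genes of that bin was not computed, so these counts are not a result about the members. With a smooth trend on length removed from each library, Dnmt3a fell by 0.48 (adjusted p = 4.28e-07), Kdm6b by 0.87 (6.20e-06) and Dot1l by 0.30 (1.56e-04), and Hdac9 rose by 0.85 (2.83e-04), all with edgeR. Tet3 missed the threshold then (-0.15, adjusted p = 0.0636), and the median of the members went from -0.04 to 0.03.

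**Figure D4:**
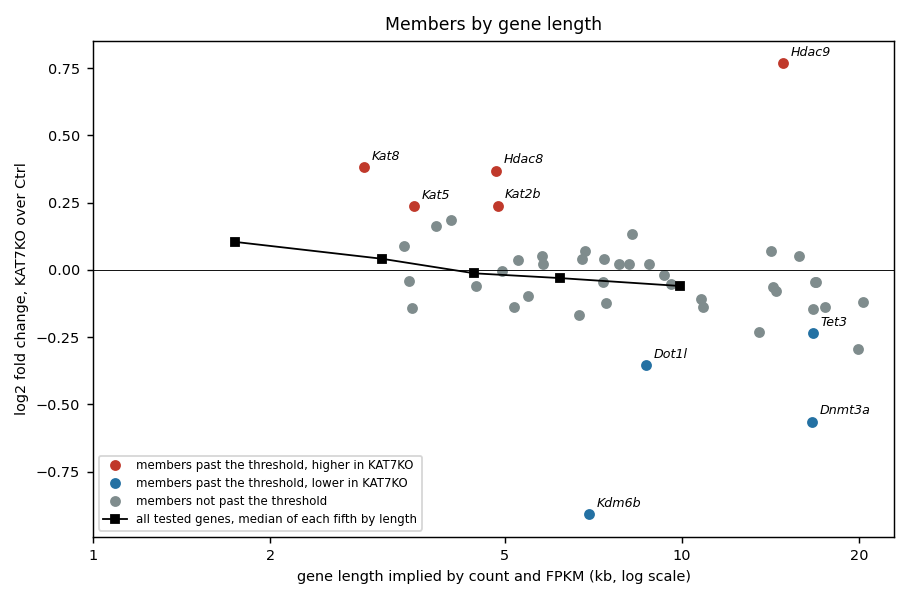
Log2 fold change of the 46 tested members against gene length on a log scale, with the median of each of 5 equal length bins of all 12483 tested genes as squares. The squares go from 0.10 to -0.06 with length, and most members follow close to them. Kdm6b, Dnmt3a, Dot1l, Hdac9, Hdac8 and Kat8 are among those that lie farther away.

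Marker lists of the labelled and of other cell types also moved with genotype. All 10 macrophage markers were detected and summed to 27465 to 37157 CPM in Ctrl and 22172 to 22981 CPM in KAT7KO, most of it Lyz2. Of the 10, 3 fell and 0 rose, and the libraries did not overlap for 5 lower and 3 higher. Over all genes, 13.2% fell and 10.7% rose, and the libraries did not overlap for 21.2% lower and 19.9% higher. These shares are the background for the other marker lists too, most of which hold few tested genes. The summed level of the 9 markers other than Lyz2 was 4383 to 4578 CPM in Ctrl and 4521 to 4594 CPM in KAT7KO. Of 14 markers of proliferating cells 13 fell, and the median log2 fold change of the 14 was -0.68 (range -1.05 to 0.11). Their sum, in which markers with more RNA weigh more, was 330 to 360 CPM in Ctrl and 291 to 302 CPM in KAT7KO. Of 7 tested stromal and endothelial markers 4 fell and 0 rose, of 4 tested progenitor markers 2 fell and 0 rose, of 2 tested neutrophil markers 2 rose, and of 3 tested B cell markers 1 rose. Summed stromal and endothelial markers went from 788 to 1008 CPM in Ctrl to 717 to 733 CPM in KAT7KO, and neutrophil markers from 88.3 to 91.4 CPM to 112 to 120 CPM, mostly Csf3r, with Mpo, Elane, Ngp, Camp, Ltf and Cxcr2 under 1 CPM. Progenitor markers summed to 24.4 to 29.0 CPM in Ctrl and 17.5 to 19.6 CPM in KAT7KO, and B cell markers to 2.56 to 3.91 and 4.62 to 6.17 CPM. Pf4 made up most of the erythroid and megakaryocyte sum (49.8 to 68.3 and 36.7 to 39.4 CPM), and T and NK cell and dendritic cell markers summed to under 5 CPM in every library. Their part in the results for the members was not tested, and in bulk RNA fewer cells of a type and less RNA per cell cannot be told apart.

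The remaining chromatin genes were covered by 9 further lists of 165 genes, of which 161 were tested. Of these 7 rose and 13 fell, 12.4% in all against 23.9% of all genes, and their median log2 fold change was -0.0028. With the length trend removed the counts were 17 and 15, where 13.4% of all genes rose and 14.7% fell. Uhrf1, which brings DNMT1 to newly copied DNA, had a mean of 18.1 CPM in Ctrl and 11.1 CPM in KAT7KO (-0.71 on the log2 scale, adjusted p = 9.26e-04) and was the 1 of 11 tested DNA methylation genes on its list that passed. Of 18 subunits of the polycomb complex PRC1, 3 fell and 0 rose, where 13.2% of all genes fell and 10.7% rose. The median log2 fold change of the 18 was -0.04. The 3 were Cbx2 (3.15 to 1.17 CPM, -1.42), Cbx6 (-0.50) and Pcgf2 (-0.55). Cbx2 and Pcgf2 had few counts, 18 to 71 and 49 to 86 a library. None of the 7 accessory subunits of PRC2 passed with edgeR, where 2 had an unadjusted p under 0.05.

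Among 14 other demethylases 2 fell, the lysine 4 demethylase gene Kdm5b from 26.9 to 17.9 CPM (-0.59, adjusted p = 3.06e-04) and Jmjd1c (-0.34). Of 22 deacetylase complex subunits, the Sin3 subunit gene Suds3 rose (0.39), while the NuRD genes Mta1 (-0.33) and Chd3 (-0.26) fell. Of 31 acetyltransferase complex subunits outside the KAT7 complexes 3 rose and 1 fell. The 3 were the NuA4 genes Yeats4 (0.30) and Ing3 (0.32) and the SAGA gene Taf6l (0.29), and the 1 was the SAGA deubiquitinase gene Usp22 (-0.21), named after its value was seen. Psip1, a chromatin tether of the MLL complex, was the 1 of 13 H3K4 complex genes that passed (-0.43). Other methyltransferases gave Smyd3 (0.53) and Kmt5a (0.16) higher and Smyd2 (-0.41) lower of 24, and other readers gave Brd1 higher (0.25) and Zmynd8 (-0.40) and Trim28 (-0.21) lower of 21. Brd1 is also a scaffold of a KAT7 complex.

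Kdm6b, Dnmt3a and Hdac9 passed under all 15 alternative settings, and Dot1l under all but the test for a change over 1.2-fold. Kat5, Kat2b, Kat8, Hdac8 and Tet3 each lost the call in 4 to 12 settings without a change of sign. With edgeR, leaving out 1 library gave 1 to 6 higher and 3 to 8 lower members. The authors' deposited table, where 13.5% of all genes have an adjusted p under 0.05, calls 7 of the 47 members, and 6 of those are among the 9 here.

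**Figure D5:**
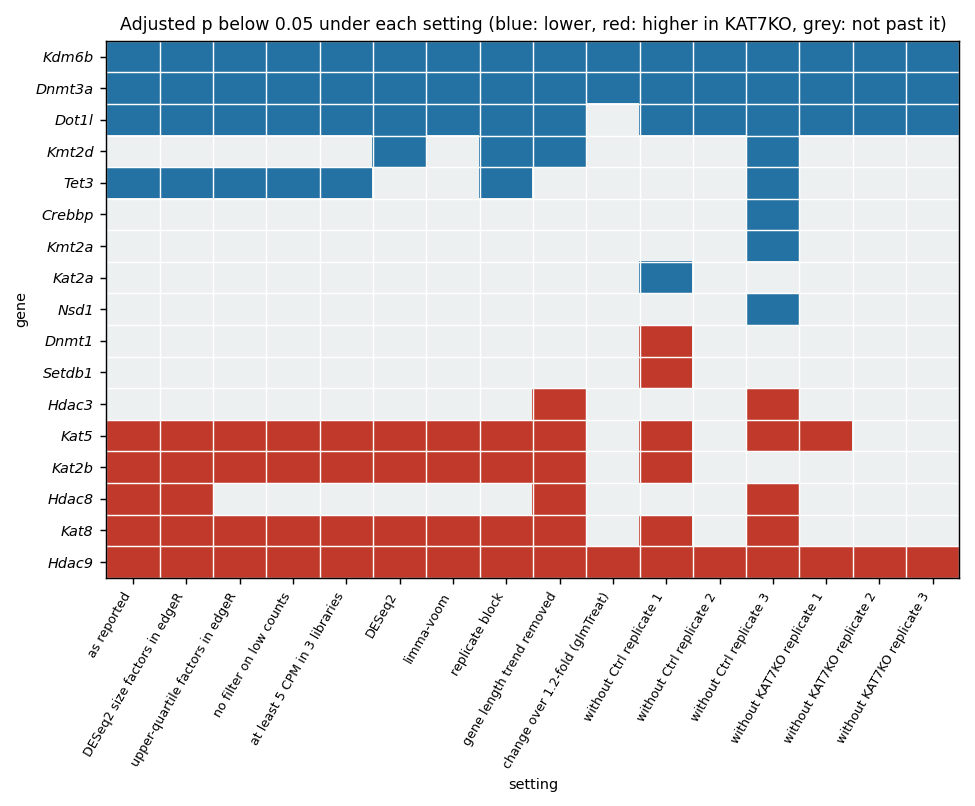
Each column is a setting and each row 1 of the 17 members with an adjusted p under 0.05 in at least 1 setting; red marks higher, blue lower and grey not past the threshold. The rows of Kdm6b, Dnmt3a and Hdac9 are filled throughout, that of Dot1l lacks 1 field, and the rest are filled in part.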

How the data were processed

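RNA was measured in 6 libraries, and groups and replicate numbers came from the sample titles. The authors deposited whole-number counts for each gene without scaling. They also deposited FPKM, scaled by the authors for gene length and library size, and a log2 fold change with a p-value from their own comparison. The submitters' processing notes list GRCm39, featureCounts, HISAT2, fastp, FastQC and DESeq2, with neither version nor role, and the strand setting is not given in the sources used here.

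Of 18039 genes, 12483 passed filterByExpr. After TMM scaling, edgeR 4.0.16 (R 4.3.3) gave robust quasi-likelihood tests, and p-values were adjusted by Benjamini-Hochberg across the 12483 genes, with 0.05 as threshold. Standard errors (SE) were derived from the F statistic, and intervals are at 95%. The procedure was tested on simulated data. It found 21 of 50 genes changed by 1.3-fold (42%) and 41 of 49 changed by 1.5-fold, and 11 of its 163 calls were of unchanged genes. Many changes of 1.3-fold or less would thus be missed. All members past the threshold are named with each library's value, those that did not pass by log2 fold change, and from each further list up to 3 genes past the threshold in order of p. The members and lists were chosen with earlier results of these data known. Replicate pairs differed by a mean chi-square per gene of 2.69 to 20.2, above sampling noise, so none was counted as 1 library. The highest values were those of Ctrl replicate 1, 11.5 against Ctrl replicate 2 and 20.2 against Ctrl replicate 3. The other pairs had 2.69 to 3.78. Alternatives were other scalings, filters, DESeq2 1.42.0, limma-voom 3.58.1, a replicate block, a loess length trend (span 0.5), glmTreat at 1.2-fold and each library left out. Exon overlaps were computed from the exon coordinates of GENCODE M21, with genes matched by name. Counting error alone is covered by the limit of 3 counts.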

Additional observations from a re-analysis of the deposited data

How the results depend on the processing

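Of 690 values for the 46 members under 15 alternatives, 641 kept their direction where called and their side of the threshold, 37 lost the call, 12 gained it and 0 turned while called. A test for a change over 1.2-fold left 1 member higher and 2 lower, 1 and 3 of the further chromatin genes, and 199 and 641 of all genes. Leaving out 1 library gave 1 to 6 members higher and 3 to 8 lower, 2 to 16 and 9 to 20 further chromatin genes, and 663 to 1708 and 1071 to 1820 of all genes. The extremes of the members were without Ctrl replicate 2, KAT7KO replicate 2 or KAT7KO replicate 3 (1 higher), without KAT7KO replicate 1 (2 higher), without Ctrl replicate 1 (6 higher) and without Ctrl replicate 3 (8 lower). For the further chromatin genes, the count that rose moved by over 1.5 times without any 1 of the 6 libraries. With all libraries, 1335 of all genes were higher and 1652 lower, so counts went up as well as down when 1 was left out. The tests without a library have fewer samples, and why the counts moved was not tested. DESeq2 called 4 further chromatin genes higher, and removal of the length trend 17, where 9.71% and 13.4% of all genes were called higher. With the replicate number as a block, 4 members were higher and 5 lower (6 and 12 further chromatin genes, 1290 and 1522 of all genes), with Kmt2d gained and Hdac8 lost. Same-numbered libraries did not deviate together (correlations of -0.0043, 0.0060 and 0.02), so the numbers were not taken to pair the libraries. The test of paralog ratios (0 called, as FPKM or CPM) cannot go below an exact p of 0.1 with 3 against 3 or fewer libraries, and so says nothing about stability. Depth limits Hdac11, with 0 to 16 counts a library, and Hdac9, with 70 to 157.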
